A study of Mus musculus with 4 samples.

Results

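The channels, pumps and transporters of salivary fluid secretion were examined as a set of 8 genes, taken by symbol from a deposited table of 24411 gene symbols. The set holds the water channel Aqp5, the chloride carriers Slc12a2 and Ano1, the potassium channels Kcnma1 and Kcnn4, the sodium pump subunit Atp1b1, the bicarbonate cotransporter Slc4a4 and the carbonic anhydrase Car2. All 8 were found in the table and all 8 passed the filter on low counts. RNA had been sequenced from the sublingual gland, a small mucous salivary gland, of female mice of the C57BL/6J background in which both copies of the homeobox gene Nkx2-3 are disrupted (Nkx2.3-/- in the labels). There were 2 libraries at 32 weeks (replicates 3 and 4) and 2 libraries at 8 weeks (replicates 1 and 2). Every library carries the knockout, so the values describe age within the mutant and nothing in them sets the mutant against an intact gland. The labels do not say which part of Nkx2-3 is deleted, or whether a library came from 1 animal or a pool, so p-values reflect differences among these libraries that may be technical.

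Acinar cells of a salivary gland secrete fluid by moving chloride from blood to lumen. The sodium pump keeps sodium low inside the cell, and the basolateral cotransporter encoded by Slc12a2 (NKCC1) uses that gradient to load chloride together with sodium and potassium. When a nerve signal raises cell calcium, the apical chloride channel Ano1 (TMEM16A) opens, while the calcium-activated potassium channels Kcnma1 (the maxi-K channel) and Kcnn4 (the intermediate-conductance channel) keep the cell electrically negative. Sodium follows chloride between the cells, and water follows salt through Aqp5 in the apical membrane. Slc4a4 and Car2 serve the bicarbonate side of the same process, the first by carrying sodium with bicarbonate and the second by making bicarbonate from carbon dioxide. Ducts then change the saliva's salt content.

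The libraries held 16484772 and 16111122 counts at 32 weeks, against 12925869 and 14265485 counts at 8 weeks. Nkx2-3 itself had 21 and 29 counts at 32 weeks, against 31 and 28 at 8 weeks, which does not check the knockout because counts from an undeleted part would also be listed. The sublingual mucous products Muc19 and Smgc each stood at 12021 CPM or more in every library (counts per 1e6 counts, scaled between libraries by edgeR's trimmed mean method, TMM), the mucous markers Agr2 and Spdef were also present, and Tff2, another mucous marker, had 1 count in 32-week replicate 3 and 0 in the other 3 libraries. The 8-week replicate 2 library stood apart from the others: it was the highest library for 34.7% and the lowest for 35.3% of the 12810 genes tested. Fold changes and pathway list medians that rest on it are given with and without it. Log2 ranges and differences between the profiles of genes were computed on all 4 libraries only.

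The promoter windows of Aqp5 and Kcnn4 are shown because these 2 members lay farthest below their own means in 8-week replicate 2. That of Atp1b1 is shown as a member above its own mean there, by 0.13 on the log2 scale. Ano1, at 0.20, lay higher and has a window that is not printed. Car2, at 0.50, and Slc12a2, at 0.16, also lay higher but had no window. The printed windows therefore do not compare low members with high ones. Each window runs from 250 bases before to 50 bases after a RefSeq transcription start on build GRCm38.p6, a later build than the one the counts were made on, and is read along the gene's own strand. Capitals mark every match, on either strand, to 4 motifs. CACGTG is the palindromic core of an E-box. GGGCGG is the GC box that Sp factors bind. TATAAA is the core of a TATA box. CCAAT is the box that the nuclear factor Y complex binds. In the printed windows no match to one motif overlaps a match to another. The Aqp5 window is chr15:99590778-99591077 (plus strand), the Kcnn4 window is chr7:24370013-24370312 (plus strand) and the Atp1b1 window is chr1:164458306-164458605 (minus strand).
Aqp5: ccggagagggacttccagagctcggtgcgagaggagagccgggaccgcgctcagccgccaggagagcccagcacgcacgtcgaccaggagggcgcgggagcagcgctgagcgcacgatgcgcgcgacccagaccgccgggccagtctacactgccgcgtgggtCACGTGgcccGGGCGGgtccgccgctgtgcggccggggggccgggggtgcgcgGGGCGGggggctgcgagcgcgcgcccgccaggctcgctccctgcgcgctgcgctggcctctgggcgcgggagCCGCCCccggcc
Kcnn4: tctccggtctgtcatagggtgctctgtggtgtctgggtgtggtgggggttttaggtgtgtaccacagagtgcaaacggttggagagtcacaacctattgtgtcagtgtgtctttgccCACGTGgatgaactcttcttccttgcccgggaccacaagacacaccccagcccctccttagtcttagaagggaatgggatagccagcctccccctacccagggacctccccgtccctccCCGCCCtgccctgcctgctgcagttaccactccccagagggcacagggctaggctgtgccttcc
Atp1b1: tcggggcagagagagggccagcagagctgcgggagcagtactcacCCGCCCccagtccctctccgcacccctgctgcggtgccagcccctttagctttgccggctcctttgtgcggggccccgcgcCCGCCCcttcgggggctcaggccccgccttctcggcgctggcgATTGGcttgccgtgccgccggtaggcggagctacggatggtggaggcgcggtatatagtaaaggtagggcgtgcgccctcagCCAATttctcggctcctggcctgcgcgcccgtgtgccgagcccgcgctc
CACGTG began 87 bases before the start in Aqp5 and 133 bases before the start in Kcnn4, and these were the 2 of 7 member windows that held it, against 7.15% of the 32851 windows in the RefSeq table. GGGCGG was found in 6 of the 7 windows, against 35.7% of all windows. CCAAT was found in 2 of 7 windows, those of Atp1b1 and of 1 of the 2 starts of Slc4a4, against 37.4% of all windows. TATAAA was found in none of the 7, against 13.6% of all windows. The table held windows for 6 of the 8 members, 2 of them for Slc4a4. The motifs were chosen after the sequences had been seen. A match describes letters in the window and says nothing of binding.

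Levels of different genes were compared per kilobase of exon, since longer transcripts collect more reads. Aqp5 was the most abundant member, at 361 and 280 CPM per kilobase at 32 weeks, against 324 and 145 CPM per kilobase at 8 weeks. Atp1b1 averaged 94.8 CPM per kilobase over the 4 libraries, Kcnn4 71.2 and Slc12a2 39.6. A lower group followed, in which Car2 averaged 14.04, Ano1 10.8 and Kcnma1 9.35 CPM per kilobase. Slc4a4 was lowest, at 1.97 CPM per kilobase. Every library of Aqp5 lay above every library of Atp1b1, and the steps from Kcnn4 to Slc12a2, from Slc12a2 to Car2 and from Kcnma1 to Slc4a4 were also free of overlap. Atp1b1 and Kcnn4 overlapped across libraries but kept their order within each of the 4, as did Car2 and Ano1. Ano1 and Kcnma1 overlapped and changed places in 8-week replicate 1. With the length of the longest coding transcript in place of merged exons the order of the 8 averages did not change, while Slc4a4 averaged 2.68 and Ano1 12.2 CPM per kilobase. The 8 genes together took 0.134% and 0.123% of the counts at 32 weeks, against 0.143% and 0.108% at 8 weeks.

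**Figure D1:**
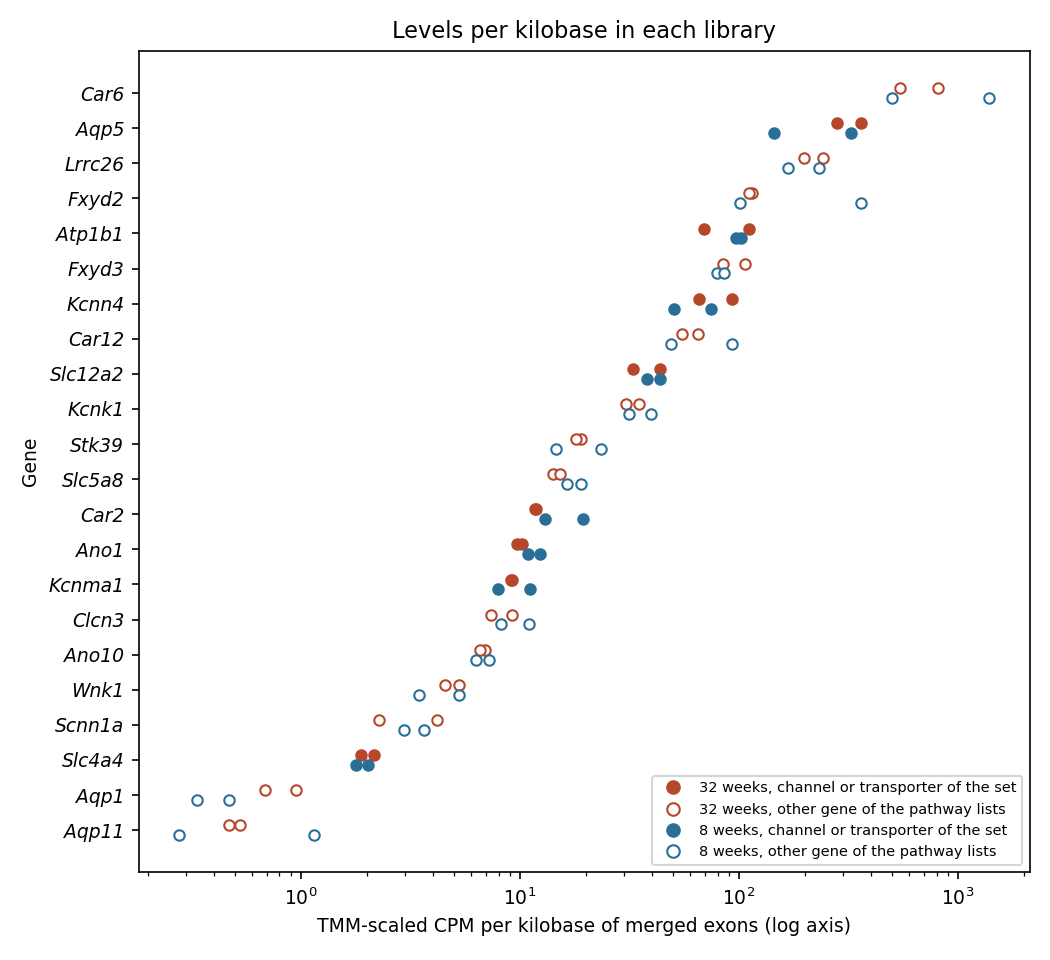
Levels in CPM per kilobase of merged exons, on a log axis, for the 8 members (filled) and for the 2 most abundant tested genes of each pathway list (open); every point is 1 library, coloured by age. Aqp5 averaged 278 CPM per kilobase and Slc4a4 1.97, with the other members between them.

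No member passed the test of 32 against 8 weeks. With edgeR's quasi-likelihood test, 0 of the 8 members reached an adjusted p of 0.05, beside 0 of 12810 genes tested (0%), and all 8 members had an adjusted p of 0.999. No member had an unadjusted p under 0.05, where 174 of all genes did. DESeq2 called 0 of the 8 members and 2 of all genes, and limma-voom called 0 of each. Of the members, 3 had a positive and 5 a negative log2 fold change, with a median of -0.08, beside a median of -0.01 and a positive share of 48.3% over all genes tested. With 2 libraries against 2, the smallest p an exact permutation test can give for a single gene is 0.333, so none was run.

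**Figure D2:**
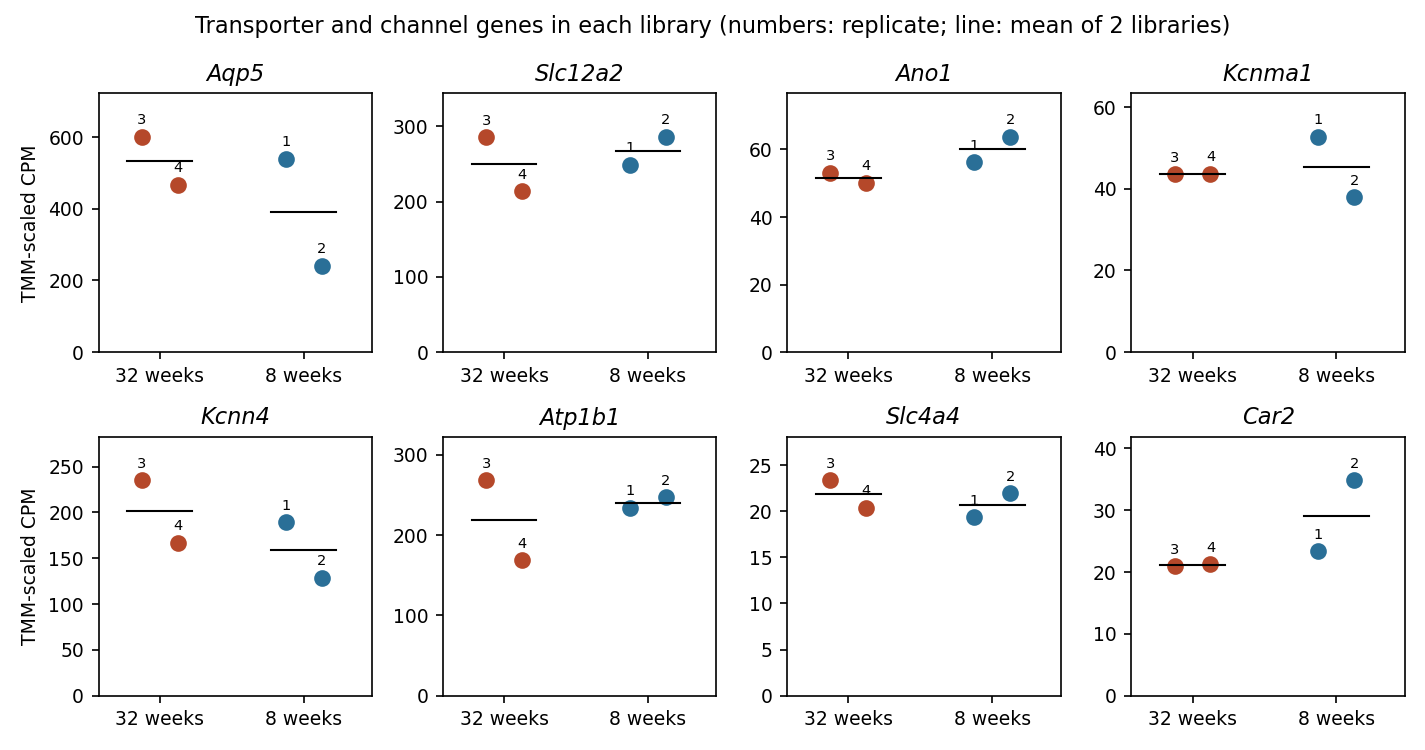
TMM-scaled CPM of each of the 8 genes, with 32 weeks left of 8 weeks; points are libraries, the numbers beside them the replicate, and the line the mean of 2 libraries. The ages overlap for 6 of the genes, and both 32-week libraries lie below both 8-week libraries for Ano1 and Car2.

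Aqp5 is the apical water channel of salivary acini (NCBIM37 chromosome 15, 99421280 to 99425260, plus strand; 4 exons in its longest coding transcript). It stood at 602 and 467 CPM at 32 weeks, against 540.1 and 242 CPM at 8 weeks. The 8-week replicate 2 library was low and the other 3 lay close together, so the ages overlapped. The means were 534 ± 95.05 CPM at 32 weeks, against 391 ± 211 CPM at 8 weeks (SD, n = 2 each). The log2 fold change was 0.45 (SE 0.39, 95% interval -0.46 to 1.36, edgeR adjusted p = 0.999). It was -0.0093 without 8-week replicate 2, against 1.15 without 8-week replicate 1. Within 8 weeks, replicate 2 held 0.447 times the Aqp5 of replicate 1, with a 95% interval of 0.430 to 0.466 that covers counting error only.

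Cell type markers were also compared in that library, which was the lowest for 35.3% and the highest for 34.7% of all tested genes. Of 9 tested mucous acinar markers, 5 were lowest in 8-week replicate 2, among them Agr2, a mucin-folding enzyme, at 49.6 and 49.7 CPM at 32 weeks, against 57.2 and 5.59 CPM at 8 weeks. The summed level of the mucous list, most of it Smgc and Muc19, was 63402 and 143770 CPM at 32 weeks, against 155340 and 87842 CPM at 8 weeks, so the sum was lowest in 32-week replicate 3 instead. Of 8 tested serous and demilune markers, 1 was highest and 2 were lowest in 8-week replicate 2. Their summed level was 480160 and 192610 CPM at 32 weeks, against 172050 and 357780 CPM at 8 weeks. That sum was lowest in 8-week replicate 1. Of 10 tested duct markers, 6 were highest in 8-week replicate 2 and 2 were lowest there. The lowest were the keratin Krt23, at 86.4 and 90.9 CPM at 32 weeks, against 93.8 and 81.8 CPM at 8 weeks, and the transcription factor Elf5, at 13.9 and 8.55 CPM at 32 weeks, against 9.67 and 8.01 CPM at 8 weeks. The sum of the duct list, nearly all of it Klk1, was 2404 and 1553 CPM at 32 weeks, against 2220.2 and 4629 CPM at 8 weeks. No duct marker was at 0 in any library. All 4 tested plasma cell markers were lowest in 8-week replicate 2, and their sum, most of it Jchain, the joining chain of secreted antibodies, was 531 and 822 CPM at 32 weeks, against 944 and 77.5 CPM at 8 weeks. The part of cell composition in the level of Aqp5 was not tested, and in whole-gland RNA fewer cells of a type cannot be told apart from less RNA per cell.

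Secretory genes of other glands, whose acini also make Aqp5, differed between libraries as well. Of 9 listed parotid and submandibular products, 5 were tested, all 5 had negative fold changes (median log2 -2.13) and none passed the test. Their list summed to 173 and 129 CPM at 32 weeks, against 570 and 474 CPM at 8 weeks. Within it Prol1, named after its values were seen, stood at 10.02 and 0.407 CPM at 32 weeks, against 196 and 203 CPM at 8 weeks, while the amylase Amy1 was high in 8-week replicate 1 alone, at 2.005 and 1.63 CPM at 32 weeks, against 152 and 2.002 CPM at 8 weeks. The lacrimal gland list summed to 39.1 and 229 CPM at 32 weeks, against 364 and 17.3 CPM at 8 weeks. Nearly all of that sum came from its 2 tested genes, Scgb2b24 and Scgb2b20, and both were lowest in 8-week replicate 2. Of the rest of the list, Esp16 was at 0 in all libraries and Esp15 had 1 count, in 8-week replicate 1. Lacrt was not among the deposited symbols. The part of other glands in the members' levels was not tested.

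Both chloride carriers varied little. Slc12a2, which loads chloride into the cell (chromosome 18, 58038332 to 58106475, plus strand; 27 exons), stood at 285 and 213 CPM at 32 weeks, against 249 and 286 CPM at 8 weeks. The ages overlapped, with 1 library of each near 285 CPM. The log2 fold change was -0.10 (SE 0.25, 95% interval -0.68 to 0.47, edgeR adjusted p = 0.999) and changed sign without 32-week replicate 4 (0.10) or without 8-week replicate 2 (0.0093). Ano1, the calcium-gated channel through which chloride leaves (chromosome 7, 151774454 to 151937879, minus strand; 25 exons), stood at 53.1 and 50.1 CPM at 32 weeks, against 56.2 and 63.8 CPM at 8 weeks. Both 32-week libraries lay below both 8-week libraries. The log2 fold change of Ano1 was -0.22 (SE 0.19, 95% interval -0.67 to 0.23, edgeR adjusted p = 0.999), and it lay between -0.30, with 8-week replicate 1 left out, and -0.12, with 8-week replicate 2 left out.

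Both potassium channels had their lowest TMM-scaled level in 8-week replicate 2. Kcnn4 (chromosome 7, 25155282 to 25170228, plus strand; 9 exons) stood at 235 and 167 CPM at 32 weeks, against 189 and 129 CPM at 8 weeks. Its highest library was 32-week replicate 3, and the ages overlapped. The log2 fold change was 0.34 (SE 0.28, 95% interval -0.32 to 1.00, edgeR adjusted p = 0.999), and leaving out 8-week replicate 2 or 32-week replicate 3 lowered it to 0.09 or 0.08. It was 0.65 when 8-week replicate 1 was left out and 0.57 when 32-week replicate 4 was. Kcnn4 is also made by T cells and macrophages. The summed T cell markers stood at 2.77 and 6.11 CPM at 32 weeks, against 7.82 and 2.90 CPM at 8 weeks, and 3 of 4 tested were lowest in 8-week replicate 2. Cd3e and Cd8a were at 0 in 32-week replicate 3. The summed macrophage markers stood at 98.5 and 147 CPM at 32 weeks, against 127 and 76.5 CPM at 8 weeks, and 6 of 7 tested were lowest in 8-week replicate 2. Of all tested genes, 35.3% were lowest in 8-week replicate 2. The part of T cells and of macrophages in the level of Kcnn4 was not tested.

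Kcnma1 (chromosome 14, 24117983 to 24622526, minus strand; 28 exons) stood at 43.6 CPM in both 32-week libraries, and at 52.8 and 37.98 CPM at 8 weeks. The 8-week libraries lay on either side of the 32-week ones. The log2 fold change was -0.06 (SE 0.22, 95% interval -0.57 to 0.46, edgeR adjusted p = 0.999) and lay between -0.27, with 8-week replicate 2 left out, and 0.20, with replicate 1 left out. Kcnma1 is also a channel of smooth muscle. Of 6 tested smooth muscle markers, all 6 were highest in 32-week replicate 4, and their sum with Des, the untested marker, was 278 and 406 CPM at 32 weeks, against 264 and 268 CPM at 8 weeks. Kcnmb1, the maxi-K partner typical of smooth muscle, stood between 0.590 and 1.52 CPM. The part of smooth muscle in the level of Kcnma1 was not tested.

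Atp1b1, the beta subunit that brings the sodium pump to the membrane (chromosome 1, 166367398 to 166388486, minus strand; 6 exons), stood at 269 and 169 CPM at 32 weeks, against 234 and 247 CPM at 8 weeks. Its highest and its lowest library were both at 32 weeks, and the 8-week libraries lay between them. The 32-week replicate 3 library held 1.59 times the Atp1b1 of replicate 4 (95% counting interval 1.52 to 1.67), and the 8-week libraries differed 1.05-fold. For Atp1b1 the log2 fold change was -0.14 (SE 0.27, 95% interval -0.78 to 0.50, edgeR adjusted p = 0.999), and its sign turned on which 32-week library was kept, at -0.50 with replicate 4 alone and 0.16 with replicate 3 alone. With 8-week replicate 2 left out it was -0.09.

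The bicarbonate genes were the least abundant members in CPM. Slc4a4 (chromosome 5, 89315843 to 89668678, plus strand; 26 exons) stood at 23.4 and 20.4 CPM at 32 weeks, against 19.3 and 21.96 CPM at 8 weeks. All 4 libraries lay close together, and within each age the counting interval of the ratio between libraries included 1. Its log2 range over the 4 libraries, 0.27, was the smallest of the 8, and 85.8% of all tested genes had a range at least as large. For Slc4a4 the log2 fold change was 0.08 (SE 0.19, 95% interval -0.37 to 0.54, edgeR adjusted p = 0.999), and it was 0.18 with 8-week replicate 2 left out. With total counts as the only scaling it was -0.012.

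Car2 (chromosome 3, 14886426 to 14900769, plus strand; 7 exons) stood at 20.9 and 21.2 CPM at 32 weeks, against 23.4 and 34.9 CPM at 8 weeks. Both 32-week libraries lay below both 8-week libraries, by a small margin for replicate 1 and a larger one for replicate 2. For Car2 the log2 fold change was -0.47 (SE 0.23, 95% interval -1.01 to 0.08, edgeR adjusted p = 0.999), the most negative of the 8. It stood at -0.14 once 8-week replicate 2 was left out, against -0.72 with replicate 1 left out. Within 8 weeks, replicate 2 held 1.49 times the Car2 of replicate 1 (95% counting interval 1.29 to 1.72). Car2 is also made by duct cells and red blood cells. Of 10 duct markers, 6 were highest and 2 lowest in 8-week replicate 2, beside 34.7% and 35.3% of all tested genes. Of 9 red blood cell markers, the 6 globin genes were listed at 0 in all libraries. How reads were counted is not stated, so these zeros were not taken as a measure of red blood cells. Alas2, the haem synthesis enzyme, stood at 3.04 and 4.595 CPM at 32 weeks, against 4.35 and 3.66 CPM at 8 weeks. The part of duct cells and of red blood cells in the level of Car2 was not tested.

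Both 32-week libraries lay below both 8-week libraries for 2 of the 8 members, Ano1 and Car2, beside 14.2% of all tested genes, and above them for 0 of 8, beside 14.4%. With CPM by total counts alone, Slc12a2 and Atp1b1 joined Ano1 and Car2, making 4 of 8 beside 18.4% of all tested genes. The scaling matters here because the TMM factor was 0.878 in 32-week replicate 3 and between 1.02 and 1.07 in the other 3 libraries.

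**Figure D3:**
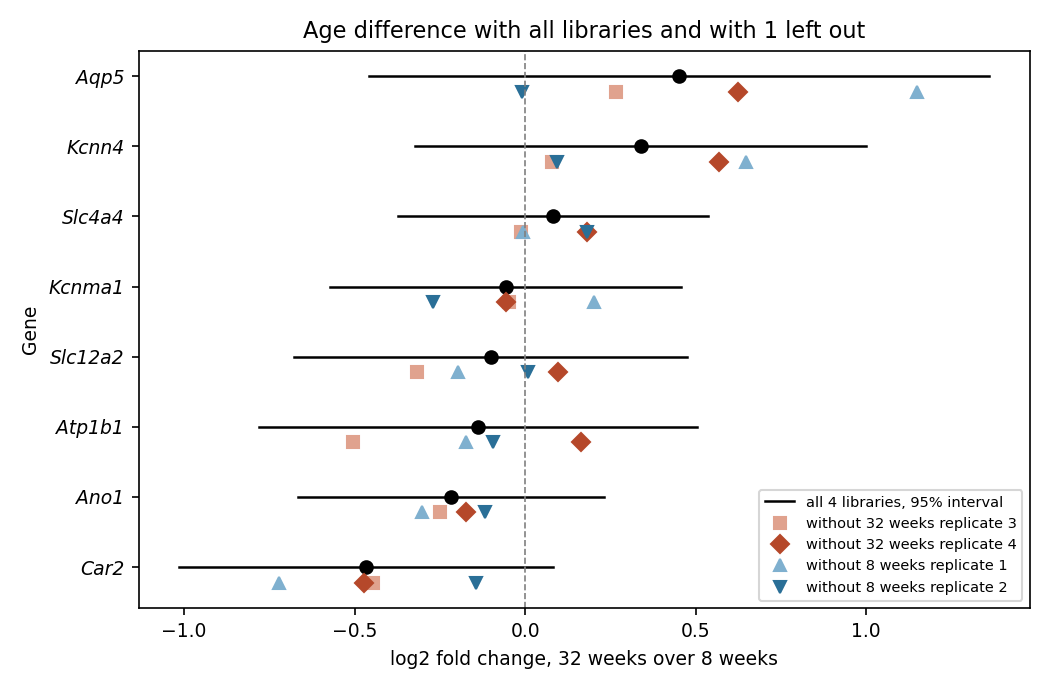
Log2 fold change of 32 over 8 weeks for each gene with all 4 libraries (black, with its 95% interval) and with 1 library left out (coloured marks). All 8 intervals include 0, and the Aqp5 estimate spans -0.0093 to 1.15 over the libraries left out.

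The members did not vary as a block. Each gene's log2 CPM was centred on its own mean over the 4 libraries, and 2 genes were compared by the root mean square difference between their centred values, where 0 means identical profiles. Over the 28 pairs of members this difference ran from 0.11, between Slc12a2 and Atp1b1, to 0.80, between Aqp5 and Car2. Among Slc12a2, Atp1b1, Slc4a4 and Ano1 it ran from 0.11 to 0.21, and Slc12a2 and Atp1b1 shared their lowest library, 32-week replicate 4. Small differences are easily reached by genes that vary little, and these 4 had log2 ranges of 0.27 to 0.67, beside a median of 0.54 over all tested genes.

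Aqp5 and Kcnn4 differed by 0.24, Kcnn4 and Kcnma1 by 0.26, and Aqp5 and Kcnma1 by 0.40. Aqp5 and Kcnn4 were each farther from Slc12a2, Ano1, Atp1b1, Slc4a4 and Car2 than from each other. In 8-week replicate 2, Aqp5 lay 0.86 and Kcnn4 0.45 below their own means on the log2 scale, while Car2 lay 0.50 and Ano1 0.20 above theirs. Kcnma1 also had its lowest value there, at -0.22, with TMM scaling, and in 32-week replicate 3 with total counts. With total counts the lowest library of Aqp5 and Kcnn4, and the highest of Car2 and Ano1, was 8-week replicate 2 as well. Aqp5 alone spanned at least 1 on the log2 scale over the libraries (1.32), which 7.24% of all tested genes equalled or passed. Of 6684 other tested genes with a mean of at least 10 CPM, the 3 closest to Aqp5 over the 4 libraries were Nr2f6, Pdap1 and Atp13a2, with differences of 0.06, 0.07 and 0.08, and Kcnn4 ranked 313. Nr2f6, a nuclear receptor, stood at 17.7 and 14.8 CPM at 32 weeks, against 15.5 and 7.60 CPM at 8 weeks.

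**Figure D4:**
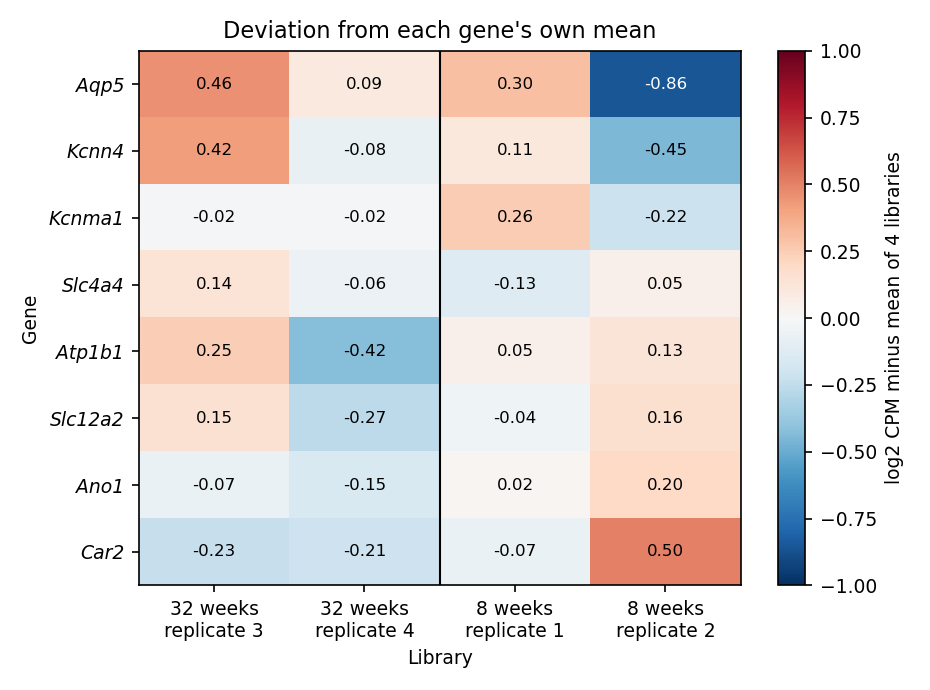
Deviation of each gene's log2 CPM from its own mean over the 4 libraries, with genes ordered by their value in 8-week replicate 2 and 32-week libraries left of the line. In that library Aqp5 lay at -0.86 and Car2 at 0.50.

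Between libraries, the members differed more than genes in general for some pairs of libraries and less for others. The median absolute log2 difference of the 8 members was 0.28 within 32 weeks and 0.34 within 8 weeks, beside 0.19 and 0.35 over all tested genes. Between 8-week replicate 2 and 32-week replicate 4 it was 0.40, beside 0.33 over all genes. With 32-week replicate 3, 8-week replicate 2 gave 0.23, beside 0.31, and 8-week replicate 1 gave 0.20, beside 0.21. The members' median was 0.20 between 32-week replicate 4 and 8-week replicate 1, which differ in age, beside 0.19 over all genes. In that comparison 7 of the 8 members were lower in 32-week replicate 4, with TMM scaling and with total counts alike. Slc4a4 was the exception. Against 8-week replicate 2, 5 of 8 were lower in 32-week replicate 4 with either scaling. In 32-week replicate 3, 5 of 8 were higher than in 8-week replicate 1 with TMM scaling, and 2 of 8 with total counts. The same counts held against 8-week replicate 2. Between the 32-week libraries 6 of 8 members were higher in replicate 3, and with total counts 4 of 8. The shares of all tested genes in these directions were not computed.

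Other genes of the pathway were counted from lists fixed with earlier results of these data known, and 0 of their 50 tested genes passed edgeR's test, with 3 at an unadjusted p under 0.05. DESeq2 and limma-voom also called 0 of the 50. Among the other water channels, 3 of 6 were tested and 2 of the 3 had positive fold changes (median log2 0.0020). That median ran from -0.60 without 32-week replicate 4 to 0.84 without 8-week replicate 2. Aqp1, the channel of vessel walls, stood at 1.80 and 2.50 CPM at 32 weeks, against 0.886 and 1.24 CPM at 8 weeks, and Aqp11, an intracellular aquaporin, at 0.622 and 0.698 CPM at 32 weeks, against 0.369 and 1.52 CPM at 8 weeks. Per kilobase, both averaged 0.61 CPM, against 278 for Aqp5.

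Among the other sodium pump subunits, 9 of 11 were tested, 6 with positive and 3 with negative fold changes (median log2 0.20, and from 0.12 without 32-week replicate 4 to 0.25 without 32-week replicate 3). Fxyd3, a small pump regulator, averaged 89.1 CPM per kilobase. Fxyd2, another pump regulator and a duct gene of the salivary gland, stood at 116 and 112 CPM at 32 weeks, against 102 and 365 CPM at 8 weeks. Its log2 fold change was -1.04 (edgeR SE 0.51, adjusted p = 0.999), and 8-week replicate 2 was the high library, as for Car2. It was 0.16 with that library left out, and -1.68 with 8-week replicate 1 left out.

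Around chloride uptake, 9 of 10 listed genes were tested, 5 positive and 4 negative (median log2 0.11, from -0.03 without 32-week replicate 3 to 0.35 without 8-week replicate 2). Stk39, the kinase that activates the Slc12a2 cotransporter, stood at 94.8 and 89.4 CPM at 32 weeks, against 117 and 72.6 CPM at 8 weeks. Wnk1, the kinase upstream of Stk39, stood at 66.8 and 77.0 CPM at 32 weeks, against 77.3 and 50.7 CPM at 8 weeks. Both kinases were lowest in 8-week replicate 2, while Slc12a2 was not. Of the 9 tested genes of the list, 3 were lowest and 3 highest there, beside 35.3% and 34.7% of all tested genes. Among other chloride channels, 7 of 9 were tested, 2 positive and 5 negative (median log2 -0.0095, and 0.08 without 8-week replicate 2). Clcn3, an intracellular chloride exchanger, and Ano10, an Ano1 relative, averaged 8.93 and 6.78 CPM per kilobase, and Clcn3 averaged 26.8 with the longest coding transcript as its length, above Ano1 at 12.2.

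Among the other potassium channel genes, 7 of 15 were tested, 2 positive and 5 negative (median log2 -0.12, and 0.06 without 8-week replicate 2). Lrrc26, the gamma subunit that lets maxi-K channels open at rest in secretory cells, averaged 210 CPM per kilobase. It exceeded Kcnma1 per kilobase 26.4-fold and 21.5-fold in the 32-week libraries, and 15.2-fold and 29.1-fold in the 8-week libraries. Kcnk1, a two-pore potassium channel, averaged 34.3 CPM per kilobase. The other gamma subunits Lrrc38, Lrrc52 and Lrrc55 had too few counts to be tested.

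Among bicarbonate transporters and carbonic anhydrases, 8 of 13 were tested, 3 positive and 5 negative (median log2 -0.25, and 0.21 without 8-week replicate 2). Car6, the carbonic anhydrase secreted into saliva, averaged 812 CPM per kilobase, above every member of the set, and stood at 987 and 1480 CPM at 32 weeks, against 907 and 2527 CPM at 8 weeks. Car12, a membrane carbonic anhydrase, stood at 296 and 249 CPM at 32 weeks, against 222 and 424 CPM at 8 weeks. Car6, Car12 and Car2 were each highest in 8-week replicate 2. Car4, named after its values were seen, was lowest there, at 3.18 and 2.50 CPM at 32 weeks, against 2.14 and 2.07 CPM at 8 weeks. Of the 8 tested genes of the list, which does not hold Car2, 4 were highest and 2 lowest in that library. The shares of all tested genes were 34.7% and 35.3%.

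All tested ductal ion transport genes had negative fold changes, beside a positive share of 48.3% over all genes tested, and none passed the test. Of 13 genes, 7 were tested (median log2 -0.67), and 6 of the 7 were highest in 8-week replicate 2, beside 34.7% of all tested genes. Without that library the median was -0.06 and 5 of 7 were negative. Slc5a8, a monocarboxylate cotransporter, stood at 75.6 and 81.3 CPM at 32 weeks, against 87.4 and 102 CPM at 8 weeks. Scnn1a, a subunit of the epithelial sodium channel, stood at 14.7 and 7.97 CPM at 32 weeks, against 10.4 and 12.8 CPM at 8 weeks. Both had smaller fold changes than the list median. The largest was that of Atp6v0d2, named after its values were seen. It stood at 4.01 and 3.43 CPM at 32 weeks, against 6.27 and 17.5 CPM at 8 weeks. Of the 10 duct markers, 6 were also highest and 2 lowest in 8-week replicate 2, beside 34.7% and 35.3% of all tested genes. The part of duct cells in these values was not tested.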

How the data were processed

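RNA was extracted with Trizol from flash-frozen glands and libraries were made with an Illumina TruSeq kit, per the labels' protocols. Reads were aligned with STAR to mm9, per the submitters' processing notes. How reads were counted, on which annotation and with which strand setting, is not stated in those notes. The deposited values are raw read counts per gene symbol, which the authors did not normalize. From these counts, TMM factors, CPM and the quasi-likelihood test of 32 over 8 weeks were computed with edgeR 4.0.16 in R 4.3.3. The default filter by age kept 12810 genes. Benjamini-Hochberg adjustment ran over all of them, at a threshold of 0.05. Log2 CPM used a prior count of 2. Alternatives changed the scaling (RLE factors, library totals alone, or TMM without the 10 genes of most counts), the filter (none, or 3 or more libraries with 1 CPM or more), the tool (limma-voom, with limma 3.58.1, or DESeq2 1.42.0) or the libraries (1 left out at a time). The code was tested on simulated counts.

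Positions and exon lengths come from GENCODE vM1 on NCBIM37, the assembly mm9 names, where 20699 symbols matched by name. No other annotated gene overlaps a member. Promoter windows come from RefSeq on GRCm38.p6. Counting intervals are exact binomial 95% intervals and cover counting error only. A count of 0 allows up to 3 counts, or 0.174 to 0.221 CPM by library.

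The members, lists and tests were chosen with earlier results of these data known. All 8 members are named. Each pathway list gives its 2 most abundant tested genes per kilobase. Genes resembling a member were sought only for members spanning at least 1 on the log2 scale.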

Additional observations from a re-analysis of the deposited data

How the results depend on the processing

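No member passed the test under any of the 11 alternatives, with the smallest adjusted p (0.0565, Car2) in edgeR without 8-week replicate 1. The number of all genes called, 0 in the main test, was 10 with total counts only, 7 with no low-count filter and 2 with DESeq2, and ran from 6 (without 8-week replicate 2) to 285 (without 8-week replicate 1) over the libraries left out, with 11 without 32-week replicate 3 and 17 without 32-week replicate 4. It stayed at 0 under the other 4 alternatives. The members' median log2 fold change, -0.08, ran from -0.15 to 0.13 over the libraries left out, the highest without 32-week replicate 4, and from -0.18 to -0.07 otherwise. Leaving out 1 library gave ranges that cross 0 for Aqp5 (-0.0093 to 1.15), Atp1b1 (-0.50 to 0.16), Kcnma1 (-0.27 to 0.20), Slc12a2 (-0.32 to 0.10) and Slc4a4 (-0.011 to 0.18). Slc4a4 was also -0.012 with total counts only. Ano1, Car2 and Kcnn4 kept their sign under all 11. The cause of these changes was not tested. A lone library left at an age is assumed to vary like the other age's pair. Fxyd2, of the pathway lists, ran from -1.68 to 0.16, at an edgeR adjusted p of 0.0193 without 8-week replicate 1. Leaving out libraries for the pathway lists and Fxyd2 was added after seeing the data. No paired analysis was possible because the ages share no replicate number. With 2 libraries per age, the members' 95% intervals, which are not adjusted over genes, reach from 0.45 (Ano1) to 0.91 (Aqp5) to either side on the log2 scale.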
